A study of Mus musculus with 6 samples.

Results

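The hypoxia response genes described here are Hif1a and 9 genes that act around it or downstream of it: Egln1, Egln3, Vegfa, Adm, Bnip3, Ddit4, Ndrg1, P4ha1 and P4ha2. They were taken as every probe set that the platform annotation assigned to 1 of these symbols alone, which gave 22 of 45037 probe sets and 10 of 18193 genes. A probe set is a group of short oligonucleotides that together report 1 transcript. The signals came from ventricles of mouse embryos of the 129SvEv strain at stage E11.5, hybridised to 1-colour Affymetrix mouse genome arrays. Of the 6 arrays, 3 held RNA of knockout embryos, in which skNAC (the muscle-specific form of Naca) had been deleted by gene targeting, and 3 that of wild-type littermates, named here by genotype and title number (knockout 1, 26 and 66, wild-type 13, 23 and 57). Per the labels the deletion is lethal by E12.5 with cardiac defects. The labels name no other allele or treatment, and they give neither the litter of an embryo nor whether an array held 1 heart or several, so p-values measure the spread between these samples, which may in part be technical.

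As background, cells sense oxygen through the hypoxia-inducible factors, pairs of an oxygen-labile alpha subunit such as HIF-1α and a stable partner, ARNT. When oxygen is plentiful, prolyl hydroxylases encoded by the Egln genes mark the alpha subunit for destruction through VHL, so the protein is controlled largely after translation and its mRNA need not follow its activity. When oxygen is low the subunit persists, binds a short core motif in DNA, and switches on genes for blood vessel growth, mitophagy, restraint of growth signalling, collagen processing and glycolysis. The ventricle of the early embryo has no coronary circulation and is supplied by diffusion, and Hif1a and Vegfa are both needed for its normal development. In a whole ventricle, fewer cells of a type and less RNA per cell cannot be told apart.

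The question asked of each gene was whether its signal differed between knockout and wild-type ventricles. Signals are MAS5 intensities, which the authors scaled on each array, and a log2 difference is the knockout mean minus the wild-type mean of log2(intensity + 16), given ± SE. Array medians ran from 92 to 113.9 at a common trimmed mean of 250. Knockout 66 stood apart, with Pearson correlations to the other arrays of 0.924 to 0.936 across probe sets, where the remaining pairs reached 0.969. The 3' to 5' signal ratio of the Gapdh control was 1.28 to 1.45 in knockout and 1.12 to 1.20 in wild-type, and that of the actin control 2.49 to 2.57 and 2.05 to 2.24, so both were higher in every knockout array. Both probe sets of the targeted gene, Naca, gave log2 differences of 0.08 (adjusted p of 0.98 in limma). On 1 of them, at 7406 to 9762, the genotypes overlapped. The other read 9047, 9034 and 8595 in the knockouts, against 8385, 8566 and 8285.5 in the wild-types. The knockouts thus lay narrowly higher without overlap, a separation that 5.37% of all genes showed in that direction. It was not known here whether either probe set reads the skNAC part, so they do not check the labels. Markers of the labelled tissue were present. All 6 ventricular markers and all 7 general myocardial ones lay above the filter, a mean signal over the 6 arrays above 100.3, the median of all probe sets. Among them were the ventricular myosin light chain Myl2 (22206 in knockout, 18772 in wild-type) and the ventricular factor Irx4 (332 and 349). Of 5 atrial markers 4 also lay above the filter, among them Myl7 (14686 and 13601) and Nppa (12332 and 11624), while Sln did not, so these signals do not tell ventricle from whole heart.

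None of the hypoxia response genes passed the test. In limma, 0 of their 17 probe sets above the filter had an adjusted p under 0.05, in a background of 0% of 22518 probe sets called. The same held for 0 of the 10 genes, each taken by its brightest probe set, in a background of 0% of 11648 genes. At an unadjusted p under 0.05 there was 1 gene, Bnip3, where 5.02% of all genes (585) met that mark, and among the probe sets 2 of 17, 1 of Bnip3 and 1 of Ndrg1, where 4.85% of all probe sets (1091) did. Of the 10 genes, 5 lay above 0 and 5 below, with a median log2 difference of -0.0038 and a range from -0.15 (P4ha1) to 0.31 (Bnip3). Over all genes 50.5% lay above 0 and the median was 0.0025. The knockout and wild-type arrays did not overlap for 2 of the 10, Bnip3 and Ddit4, in opposite directions, where 10.8% of all genes showed such a separation, 5.37% higher and 5.43% lower in knockout.

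**Figure D1:**
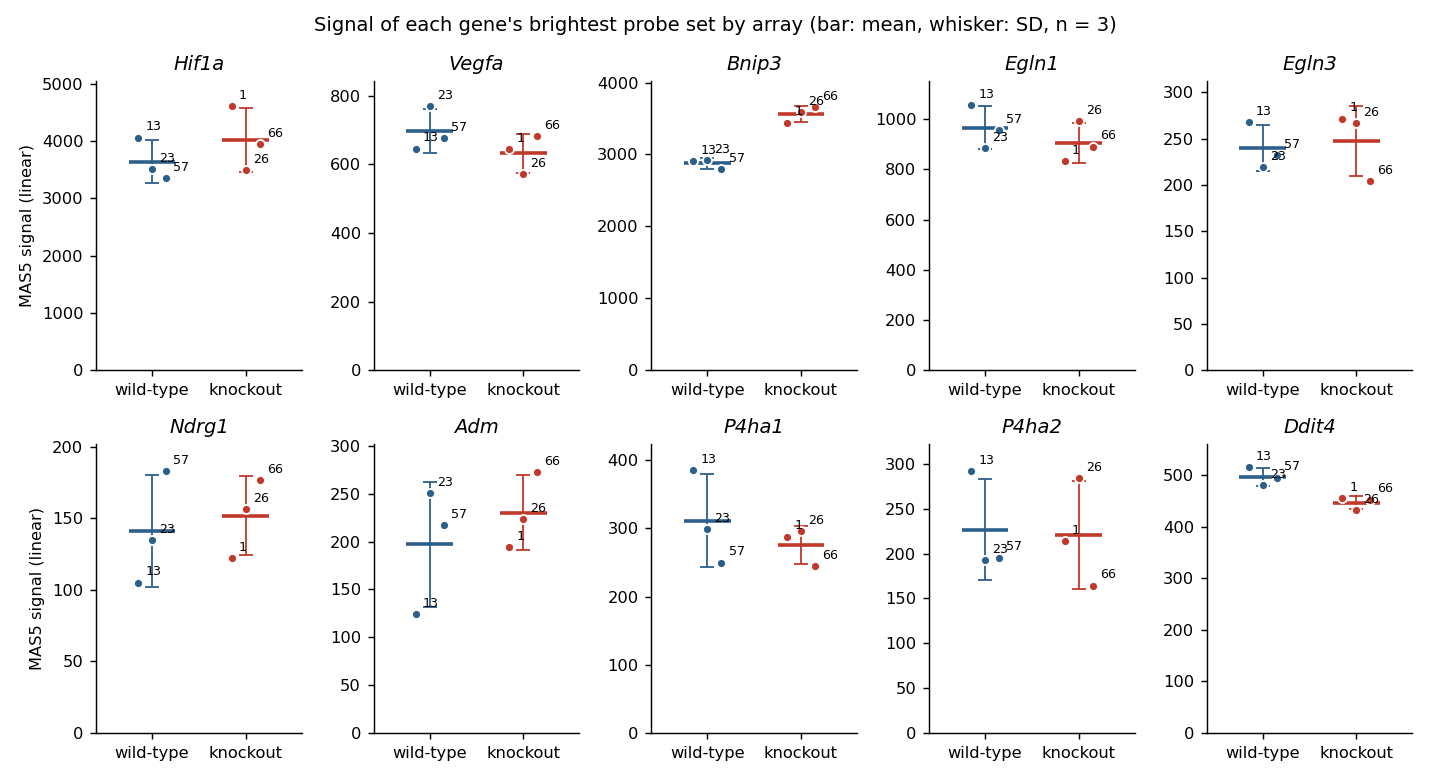
MAS5 signal (linear axis from 0) of the brightest probe set of each of the 10 genes on every array, with the array number beside each point, the mean as a bar and the SD as a whisker (3 arrays per genotype). The knockout points lie wholly above the wild-type points for Bnip3 and wholly below them for Ddit4, and the genotypes overlap for the other genes.

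Hif1a, the oxygen-labile subunit, was bright and overlapped between genotypes on its probe sets above the filter. By its brightest probe set, knockout 1, 26 and 66 had signals of 4610, 3494.5 and 3946, and wild-type 13, 23 and 57 of 4061, 3509 and 3357.5. Signals of the genes below follow the same order of arrays. Knockout 1 was the highest array and wild-type 57 the lowest, but knockout 26 lay below wild-type 13 and 23. The log2 difference was 0.14 ± 0.12 (95% interval -0.13 to 0.40). It was 0.033 without knockout 1 and 0.23 without knockout 26. A second probe set pointed the other way, at 1052, 942 and 774 in the knockouts, against 966, 1005 and 1074 in the wild-types, a difference of -0.15 ± 0.14. Hif1a had 4 probe sets, and the part of the transcript that each reads was not known here. The remaining 2 were below the filter and are given as values only. One read 93.5, 75.6 and 50.2 in knockout against 95.7, 102 and 168 in wild-type, so the genotypes did not overlap on it. The other read 15.2 to 26.9 on 5 arrays and 170.2 on knockout 66.

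The 2 prolyl hydroxylase genes, whose products are the oxygen sensors of the pathway, showed no separation. Egln1, which encodes the main hydroxylase in most tissues, read 833, 991 and 890.5 in the knockout arrays, against 1055, 886 and 956. Wild-type 13 was highest and knockout 1 lowest, with a log2 difference of -0.09 ± 0.12 (95% interval -0.37 to 0.18). The Egln1 difference ran from -0.16 without knockout 26 to -0.036 without knockout 1 and -0.028 without wild-type 13, and was -0.0012 with array quality weights. Its other probe set gave -0.10 ± 0.19. Egln3, an inducible hydroxylase and itself a HIF target, read 272, 266 and 204 in the knockouts, against 268, 219 and 232 in the wild-types. Knockout 66 was the lowest array, and the other knockout arrays lay close to wild-type 13. The difference was 0.04 ± 0.18 (95% interval -0.36 to 0.43), or 0.16 without knockout 66, and the other Egln3 probe set, below the filter, read 71.2 ± 38.3 in knockout and 77.2 ± 7.38 in wild-type (SD, n = 3).

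The secreted factors were likewise not separated by genotype. Vegfa, the principal growth factor of endothelial cells, read 644, 571 and 681.5 in the knockouts, against 646, 770.4 and 676 in the wild-types. Wild-type 23 was highest and knockout 26 lowest, while knockout 66 lay above wild-type 13 and 57. The log2 difference was -0.14 ± 0.13 (95% interval -0.43 to 0.15). It was -0.068 without knockout 26, -0.066 without wild-type 23 and -0.25 with array quality weights (unadjusted p = 0.0524 in limma). A dimmer Vegfa probe set gave 0.27 ± 0.39, from 140.3, 66.1 and 211 in the knockouts, against 128, 117 and 70.8 in the wild-types. Adm encodes adrenomedullin, a vasodilator peptide needed for vessel and heart development. It read 195, 224 and 273 in the knockouts, against 124, 250.5 and 217 in the wild-types, a difference of 0.25 ± 0.25 (95% interval -0.31 to 0.81). Wild-type 13 was the lowest array, and without it the difference was -0.03. The other Adm probe set gave 0.11 ± 0.25.

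Bnip3 and Ddit4 are the genes whose arrays did not overlap by their brightest probe set. Bnip3 encodes a mitochondrial outer membrane protein that promotes mitophagy and cell death, and Ddit4 (REDD1) encodes an inhibitor of mTORC1 that restrains growth. Bnip3 read 3442, 3593 and 3663 in the knockouts, against 2912.5, 2922.5 and 2793 in the wild-types, so its lowest knockout array lay above its highest wild-type array. The log2 difference was 0.31 ± 0.09 (95% interval 0.11 to 0.51), a 1.24-fold higher signal. Its unadjusted p in limma was 0.00545, rank 66 among 11648 genes, and its adjusted p was 0.958. With each array centred on its median the unadjusted p was 0.0572, so that 0 of the 10 genes met the mark of 0.05. Its difference stayed between 0.28 and 0.33 under the 18 alternative settings, with adjusted p from 0.174 to 0.9999 in limma, and it was 0.29 without knockout 66. Bnip3 had 1 probe set, so no second reading on the array bears on it.

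Ddit4 read 456, 433 and 453 in the knockouts, against 516, 481 and 496 in the wild-types. Its highest knockout array lay below its lowest wild-type array. The log2 difference was -0.15 ± 0.13 (95% interval -0.43 to 0.13), with an unadjusted p of 0.268 in limma. The arrays of each genotype were close together for both genes. The within-genotype SD was 0.041 on the log2 scale for Bnip3 and 0.045 for Ddit4, and 0.541% and 0.721% of all genes had a smaller one. The moderated test of limma widens such small spreads toward those of other genes of like signal. The arrays also separated by genotype in the control 3' to 5' ratios given above and in the summed signal of the macrophage and platelet markers, 2249 to 2354 in knockout and 2421 to 2852 in wild-type, with 5 of 7 markers above the filter and Cx3cr1 and C1qa below it. Of those above it, Ppbp (461.5 in knockout, 688 in wild-type) and Csf1r (347 and 405) separated. Pf4 (1064 and 1095), Itga2b (176 and 179) and Adgre1 (182 and 171) overlapped. Sums of the liver and gut markers were higher in knockout (422 to 853 against 256 to 366), although 1 of 6, Sox17, lay above the filter and Afp, Alb, Ttr, Foxa2 and Shh did not. The part of these in the Bnip3 and Ddit4 values was not tested. Sums for ventricular, general myocardial, atrial, endothelial, erythroid, epicardial and cushion markers overlapped between genotypes. Single markers above the filter separated in some of these lists. Higher in knockout were 1 of 6 ventricular (Myl2), 1 of 7 general myocardial (Actc1) and 1 of 8 epicardial ones (Krt8, 1257 against 706). Lower were 1 of 8 endothelial (Pecam1) and 1 of 7 cushion ones (Snai2, 341 against 560). Of all genes 10.8% separated. None of these markers was called, and their part was not tested either.

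Promoters of these 2 genes are shown because they are the members whose arrays separated by the brightest probe set, in opposite directions, and both carry the HIF core motif. The motif was searched as ACGTG and GCGTG on both strands in RefSeq promoter windows (build GRCm38.p6) of 300 bases, 250 before and 50 after the annotated start. The palindrome CACGTG counts as an overlapping match on each strand. The lines give the gene strand 5′ to 3′, both genes lying on the minus strand, with matches in capitals.
Bnip3, chr7:138909525-138909635: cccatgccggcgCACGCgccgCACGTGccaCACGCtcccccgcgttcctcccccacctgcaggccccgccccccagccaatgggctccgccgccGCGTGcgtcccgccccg
Ddit4, chr10:59951869-59951969: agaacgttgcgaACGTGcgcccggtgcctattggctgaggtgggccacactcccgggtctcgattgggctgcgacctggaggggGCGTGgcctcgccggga
The Bnip3 stretch holds 5 matches, the farthest beginning 117 bases before the start and the nearest 35 bases before it. Ddit4 holds 2, at 187 and 115 bases before the start. Of the 10 genes 9 had a window in the table, and each of the 9 had at least 1 match in a window, while a second Vegfa window had 0. The others held 3 (Hif1a and P4ha1), 4 (P4ha2), 2 (Egln1, Adm and the other Vegfa window) and 1 (Egln3). Among all 32851 windows, 43.8% held at least 1 match, 20.6% at least 2 and 3.86% at least 4. A match is a run of letters and not a measured binding site, and members with matches lay on both sides of 0.

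Ndrg1, a stress-responsive gene of growth arrest and differentiation, gave readings that disagreed between probe sets. It had 5, of which 3 lay above the filter. The brightest read 122, 157 and 176.5 in the knockouts, against 105, 135 and 183 in the wild-types, a log2 difference of 0.11 ± 0.26 (95% interval -0.47 to 0.69). The genotypes interleaved there, with wild-type arrays both highest and lowest. Another read 109.5, 75.6 and 44.3 in the knockouts, against 104, 134 and 196 in the wild-types, a difference of -0.82 ± 0.36 (95% interval -1.62 to -0.016). Knockout 66 was lowest and wild-type 57 highest on it, and knockout 1 lay above wild-type 13. Its unadjusted p in limma was 0.0464 and its adjusted p 0.976, on signals close to the filter of 100.3. The remaining one above the filter gave -0.23 ± 0.25.

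The alpha subunits of collagen prolyl 4-hydroxylase, P4ha1 and P4ha2, hydroxylate prolines in collagen chains and are distinct from the HIF hydroxylases. P4ha1 read 288, 296 and 244 in the knockouts, against 385.5, 299 and 249.8 in the wild-types. Wild-type 13 alone stood high, the other 5 arrays overlapped, and the log2 difference of -0.15 ± 0.18 (95% interval -0.56 to 0.26) was 0.009 without that array. A second P4ha1 probe set gave -0.13 ± 0.33. P4ha2 read 214, 284 and 164 in the knockouts, against 292, 193 and 196 in the wild-types, a difference of -0.04 ± 0.24 (95% interval -0.56 to 0.48). Knockout 26 and wild-type 13 were its high arrays and knockout 66 its lowest, and without knockout 66 the difference was 0.14.

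**Figure D2:**
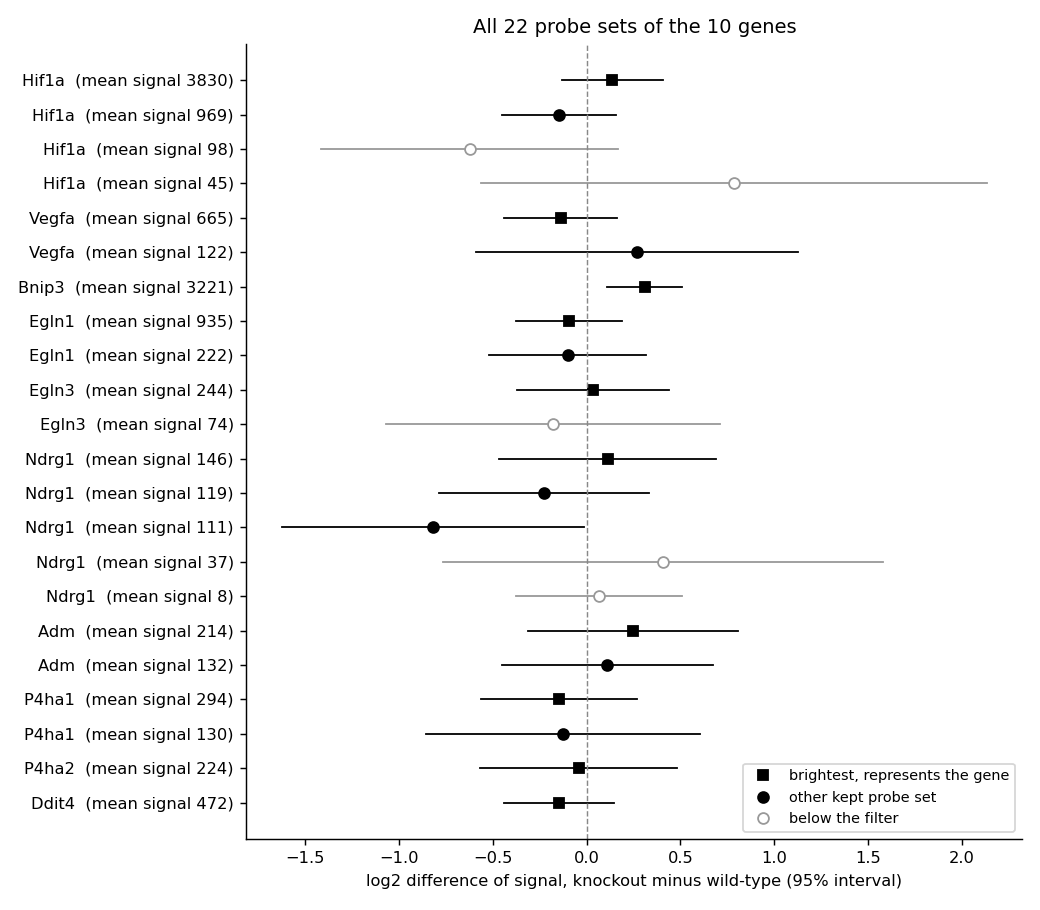
Log2 difference (knockout minus wild-type, 3 arrays each) of all 22 probe sets with 95% intervals from limma, ordered by gene and then by mean signal. Squares mark the brightest probe set of a gene, filled circles the other ones above the filter and open grey circles the 5 below it. The intervals of Bnip3 and of 1 Ndrg1 probe set leave out 0, and probe sets of Hif1a, Vegfa, Egln3 and Ndrg1 lie on both sides of it.

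The genes differed in how steadily they were measured. Of the 7 genes with more than 1 probe set, Egln1, Adm and P4ha1 had all of theirs on 1 side of 0. The within-genotype SD on the log2 scale was 0.38 for Adm, 0.34 for P4ha2 and 0.31 for Ndrg1, larger than for 84.3%, 79.5% and 73.3% of all genes. It was 0.17 for Hif1a, 0.13 for Vegfa and 0.12 for Egln1. The sign of the difference was the same under all 18 alternative settings for Bnip3, Egln1 and Ddit4, while the other 7 genes crossed 0 in at least 1.

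**Figure D3:**
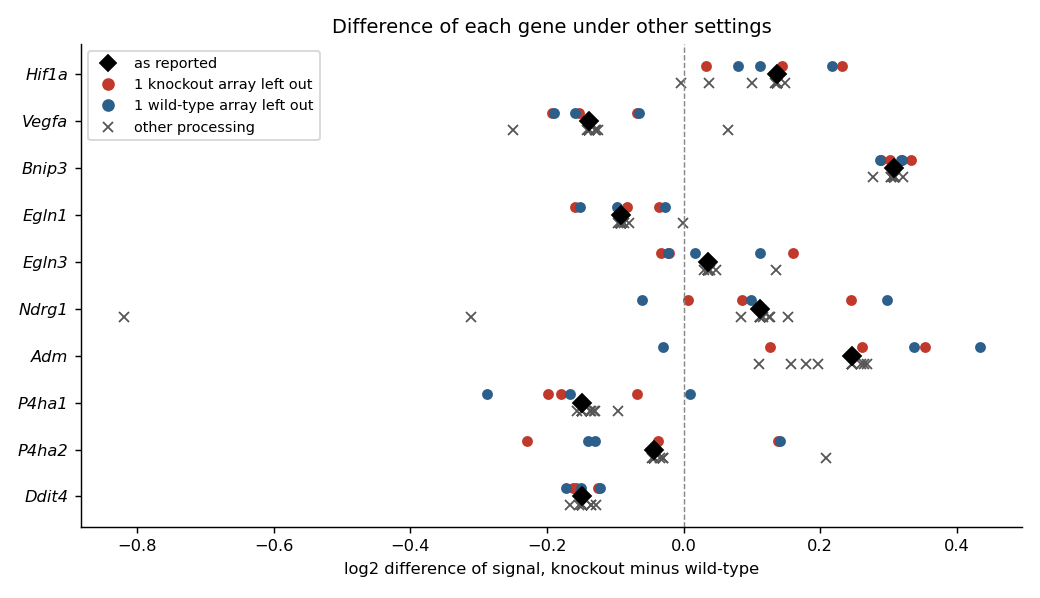
Log2 difference (knockout minus wild-type) of each gene as reported (black diamonds), with 1 knockout array left out (red circles), with 1 wild-type array left out (blue circles) and under other processing (grey crosses). Bnip3 stays between 0.28 and 0.33, and Ndrg1 reaches -0.82 when _x_at and _s_at probe sets are left out.

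Other genes of the pathway were read from 6 lists, and 0 of their 62 measured genes passed the test in limma in either direction. At an unadjusted p under 0.05 there were 3 (Arnt, Cxcl12 and Ldha), where 5.02% of all genes (585) met that mark. Of the HIF regulators, 7 of 14 lay above 0, with a median of -0.0091, which ran from -0.074 (without knockout 1) to 0.013 (without wild-type 57) with 1 array left out. Arnt, the stable partner of the alpha subunits, read 260, 219.5 and 62.7 in the knockouts, against 320, 353 and 255 in the wild-types by its brightest probe set (log2 difference -0.90 ± 0.39, unadjusted p = 0.0417, adjusted p = 0.958 in limma). Knockout 66 was far below the rest, and without it the difference was -0.34 ± 0.18. The Arnt difference was -1.24 without knockout 1 and -1.13 without knockout 26. Without wild-type 13 or wild-type 23 another probe set was the brightest and stood for Arnt, at -0.23 ± 0.29 and -0.13 ± 0.30. Of its 4 other probe sets above the filter, 3 lay above 0, at 0.25 to 0.26, and 1 at -0.12. Eloc, which encodes elongin C of the VHL ubiquitin ligase, gave 0.22 ± 0.12, with its other probe sets between -0.50 and 0.01. The Eloc difference was 0.11 without knockout 1 and 0.33 ± 0.11 without knockout 66. Arnt2, the gene of an ARNT paralogue, gave -0.34 ± 0.23. All 3 overlapped between genotypes on those probe sets.

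The receptors for the 2 secreted factors did not separate by genotype. Of the VEGF receptors and other family ligands, 3 of 8 lay above 0, with a median of -0.05. Without wild-type 13 it was 5 of 8 with a median of 0.033, and without wild-type 23 the median was -0.10. Kdr, the main signalling receptor for VEGF-A on endothelium, read 310.2, 516 and 605 in the knockouts, against 334, 377 and 445 in the wild-types (0.25 ± 0.22), with knockout 1 lowest and knockout 66 highest. The Kdr difference was 0.53 ± 0.17 without knockout 1 and 0.06 ± 0.21 without knockout 66, uncalled in both. The co-receptor genes Nrp2 and Nrp1 gave -0.22 ± 0.23 and -0.09 ± 0.14. Both moved with single arrays. Nrp2 was -0.51 ± 0.16 without knockout 66, -0.11 without knockout 1 and -0.032 without knockout 26. Nrp1 was 0.071 without knockout 66, -0.012 without wild-type 13 and -0.20 without knockout 1. Other probe sets above the filter gave -0.017 and 0.18 for Nrp2, and -0.0054, -0.16 and -0.31 for Nrp1. Among adrenomedullin receptor genes 1 of 5 lay above 0. Ramp2, an accessory protein that makes the receptor Calcrl respond to adrenomedullin, read 1477 ± 80.2 in knockout and 1607 ± 71.4 in wild-type (SD, n = 3), a difference of -0.12 ± 0.10. Ramp1 and Ramp3, its relatives, gave -0.45 ± 0.27 and 0.06 ± 0.21. Ramp1 was -0.15 without knockout 26, and Ramp3 ran from -0.011 without knockout 26 to 0.19 without knockout 1. With 1 array left out the median of the adrenomedullin receptor list, -0.03 with all arrays, ran from -0.16 without knockout 1 to 0.013 without knockout 66.

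Of the relatives of the members, 1 of 5 lay above 0, with a median of -0.05. Without wild-type 23 it was 3 of 5 with a median of 0.019, and without wild-type 57 the median was -0.16. Ndrg2 and Ndrg4, of the Ndrg1 family, gave 0.13 ± 0.14 and -0.05 ± 0.09. Ndrg2 ran from 0.035 without knockout 66 to 0.25 without knockout 1. P4hb, which encodes the beta subunit that partners P4ha1 and P4ha2, gave -0.08 ± 0.11. A second Ndrg4 probe set read 1197 ± 46.4 in knockout and 1534 ± 142 in wild-type (SD, n = 3), with an unadjusted p of 0.0111 and an adjusted p of 0.976 in limma.

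Other HIF targets lay on both sides of 0, 10 of 17 above it, with a median of 0.02. Cxcl12, a chemokine that guides migrating cells, read 847, 650.5 and 1252 in the knockouts, against 1453, 1232 and 1174.5 in the wild-types (-0.53 ± 0.20, unadjusted p = 0.0254, adjusted p = 0.958 in limma), with knockout 66 inside the wild-type range. Without knockout 66 the Cxcl12 difference was -0.77 ± 0.15 (adjusted p = 0.244 in limma), and without knockout 26 it was -0.31 ± 0.18. Cited2, a HIF-induced transcriptional regulator that limits HIF activity and is needed for heart development, read 1626.5, 1512 and 1376 in the knockouts, against 1237, 1250.2 and 1343 in the wild-types (0.23 ± 0.11). Its knockout arrays all lay above its wild-type arrays, as did those of 5.37% of all genes. Edn1, the gene of the vasoconstrictor endothelin, gave -0.38 ± 0.20 with overlap. The Edn1 difference was -0.60 ± 0.18 without wild-type 57 and -0.23 ± 0.22 without wild-type 13, uncalled in both. The list had 8 of 17 above 0 without knockout 1 or without wild-type 57, at medians of -0.0071 and -0.025.

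Glycolytic HIF targets lay mostly above 0, 12 of 13 with a median of 0.07, none of them called. Ldha, which encodes a subunit of lactate dehydrogenase, read 9090.5, 9759.5 and 9166 in the knockouts, against 8615.5, 8315 and 7685 in the wild-types (0.19 ± 0.08, unadjusted p = 0.0435, adjusted p = 0.958 in limma). Hk1, a hexokinase gene, gave 0.17 ± 0.10. The genotypes did not overlap for 2 of the 13, Ldha and Hk1, a separation in that direction that 5.37% of all genes showed. A second, dimmer Hk1 probe set gave -0.48 ± 0.23. Tpi1, of triosephosphate isomerase, gave 0.18 ± 0.11 on its brightest probe set, 0.18 ± 0.11 on another of like signal and -0.11 on a dimmer one. Of these 13 genes, 7 were in the brightest of 10 equal groups of genes by signal, as were Bnip3 and Hif1a, and in that group 64.7% of genes lay above 0 with a median of 0.04. The count above 0 stayed at 12 of 13 with other pseudocounts, without the filter, with median-centred arrays and with array quality weights. The same held under the other eBayes settings, with the filter on mean log2 values, without knockout 1 and without wild-type 13. The count was 11 of 11 at the 70th percentile filter, 11 of 12 without _x_at and _s_at probe sets, and 11 of 13 without knockout 66. It was 10 of 13 after quantile normalization or without wild-type 23, and 8 of 13 with the mean of each gene's probe sets. It was 9 of 13 without knockout 26 or without wild-type 57, and the median ran from 0.028 without wild-type 57 to 0.13 without wild-type 13.

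**Figure D4:**
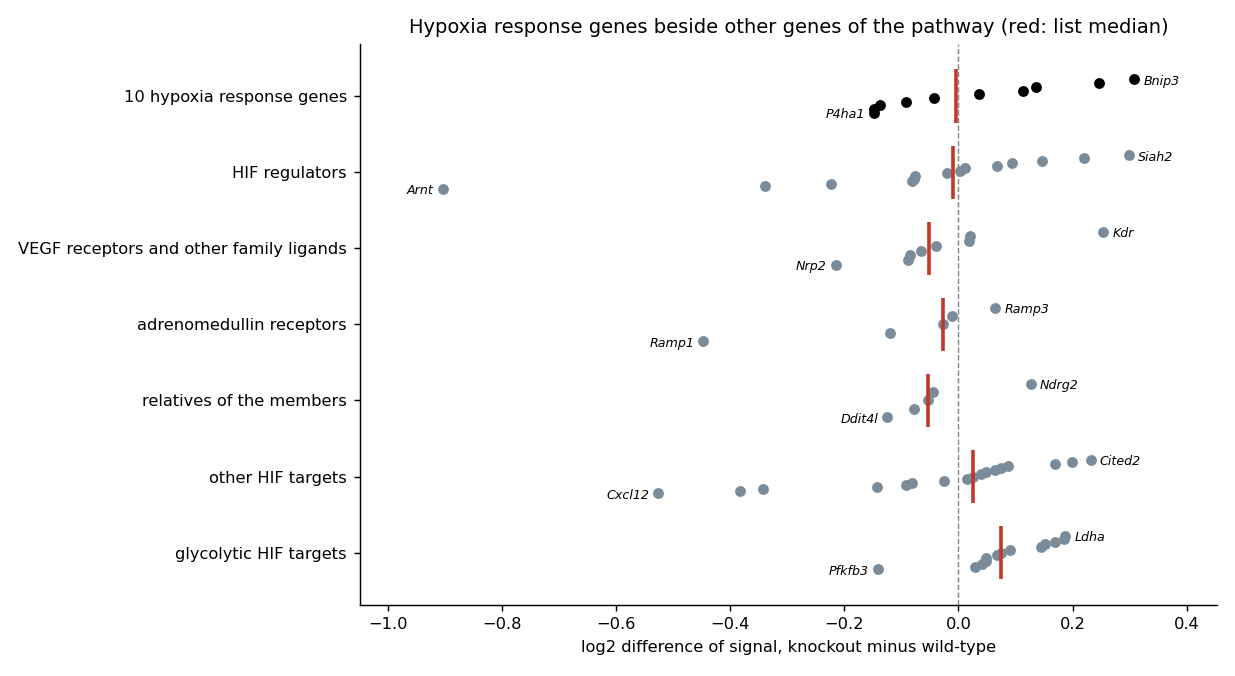
Log2 difference (knockout minus wild-type) of the 10 hypoxia response genes (black) and of the measured genes of 6 pathway lists (grey), 1 point per gene, with list medians as red bars and the lowest and highest gene of each list named. The medians run from -0.05 to 0.07, and Bnip3 is the highest and P4ha1 the lowest of the 10 genes.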

How the data were processed

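RNA of 6 ventricle samples (500 ng each, amplified and biotin-labelled, per the labels' protocols) was hybridised to 1 array per sample. Probe set intensities on a linear scale were computed by the authors, and the submitters' processing notes name GCOS and MAS5. Versions, the scaling target and present or absent calls were not given in the sources used. Every deposited column had a 2% trimmed mean of 250, so signals are relative to the rest of their array.

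Probe sets were named by the platform annotation. Control probe sets (64) were left out. Intensities were transformed as log2(intensity + 16), and the 22518 probe sets whose mean intensity exceeded the median of all (100.3) were fitted in limma 3.58.1 (R 4.3.3; lmFit, eBayes with trend, two-sided, Benjamini-Hochberg at 0.05). The fit was repeated on each gene's brightest kept probe set with 1 symbol (11648 genes). Values of brightest probe sets come from the gene fit and those of other probe sets from the probe set fit. Differences of dim genes are understated. The number of arrays limits the precision (median SE of a gene 0.18). No test was made over a list.

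The members and lists were chosen with earlier results of these data known. Named were all members, and up to 3 genes per pathway list by smallest p. The fit was tested on simulated data. Alternatives covered the pseudocount, filter, scaling, eBayes settings, array weights, probe set choice and each array left out. A filter on mean log2 values was added after seeing the data. Figures used Matplotlib 3.10.9.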

Additional observations from a re-analysis of the deposited data

How the results depend on the processing

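No paired analysis was possible because the genotypes share no replicate number. Under all 18 alternatives 0 probe sets of the hypoxia response genes and 0 genes of the pathway lists were called in limma. Over the whole array, weighting arrays by quality (0.33 for knockout 66, 2.55 for knockout 26) called 6 probe sets and 8 genes, none of them a member. The weights also moved the median difference of the 10 genes from -0.0038 to 0.087. With each array left out in turn, 0 to 2 probe sets and 0 to 2 genes were called, the latter without knockout 1 and without knockout 66, and the median of the 10 genes ran from -0.045 to 0.067.

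Signs turned for 7 of the 10 genes, none of which was called under any setting, and the cause was not tested. P4ha2 became 0.21 with array quality weights, 0.14 without knockout 66 and 0.14 without wild-type 13. Ndrg1 became -0.82 when _x_at and _s_at probe sets were left out, where another probe set stood for it, -0.31 with the mean of its probe sets and -0.060 without wild-type 13, and it had no value at the 70th percentile filter. With the mean of their probe sets Hif1a became -0.0044 and Vegfa 0.066. Egln3 became -0.034 without knockout 1, -0.021 without knockout 26 and -0.022 without wild-type 23. Without wild-type 13, Adm became -0.030 and P4ha1 0.0090. Leaving out 1 array each, the highest or lowest values on the other side were 0.16 for Egln3, 0.30 for Ndrg1, 0.43 for Adm, -0.29 for P4ha1 and -0.23 for P4ha2. By their brightest probe sets the mean signals were 146 for Ndrg1 and 214 for Adm, against a filter of 100.3. These signals and the number of arrays limit what both genes can show.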
